A study of Mus musculus with 22 samples.

Results

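Of the mouse genes known to be imprinted, 32 that lie outside the Igf2 and Kcnq1 region were followed through a study of Dnmt1, the enzyme that copies DNA methylation to the new strand at each cell division. The genes were chosen by name, not by a threshold on measured values, and a row of a count table was taken where its gene symbol matched exactly. The culture tables held 34866 genes and 27 of the 32. The whole-number cartilage table held 23911 genes and 31 of the 32. Meg3, Rian, Mirg, Airn and Peg13 were not analysed here in the cultures, and Kcnk9 was not analysed here in cartilage. RNA was measured in 22 libraries in 6 groups. Controls are labelled Dnmt1 flox, and the conditional knockouts (cKO) in culture are labelled Prrx1-Cre;Dnmt1 flox/flox, which places Cre under a promoter active in limb mesenchyme, the source of limb cartilage and other limb connective tissue. The cultures were primary chondrocytes from knee articular cartilage of newborn mice, with 3 control and 3 cKO libraries without treatment (day 0) and 4 and 4 after 3 days with bone morphogenetic protein 2 (BMP2, 100 ng/µl per the labels), which drives chondrocyte differentiation (day 3). The tissue samples were collagenase-treated cartilage at postnatal day 5, with 4 control and 4 cKO libraries, labelled flox and cKO with library names that carry Prx1Dnmt1, and with males and females in both genotypes. The labels do not say whether a control carries Cre or which exons the deletion removes. They also do not say whether animals were pooled, or what share of the cells in a sample had lost Dnmt1. The culture libraries are titled biological replicates, and each cartilage group holds both sexes, so its libraries cannot all come from a single animal. It is not stated that every replicate came from a separate animal. The p-values measure the spread between these samples, part of which may be technical.

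Imprinted genes are transcribed mainly from the copy inherited from the mother or from the father. The choice is written as DNA methylation in the egg or the sperm at a control region of each domain, and in body cells that mark is kept through divisions by DNMT1. Paternally expressed genes usually have their own promoter at, or close to, a control region that is methylated on the maternal copy. Maternally expressed genes of the same domains are often silenced on the paternal copy by a long non-coding RNA or by competition for enhancers, so that loss of methylation can raise some members of a domain and lower others. Many of these genes act on fetal growth: Igf2r and Grb10 restrain growth factor signalling, and Peg3, Plagl1, Dlk1 and Mest belong to a group of genes that are high in fetal mesenchyme and are turned down after birth. The counts used here carry no allele, so the parental copy given for a gene is textbook knowledge and not a measurement.

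Total counts were between 41749327 and 51741478 per library at day 0, between 14434197 and 18918714 at day 3 and between 1100198 and 1888896 in cartilage, so a low level (in CPM, counts per 1000000 counted reads, scaled within each table and not comparable between tables) rests on many reads in culture and on a handful in cartilage. Dnmt1 was between 147 to 159 CPM in controls and 25.7 to 31.3 CPM in cKO at day 0, 64.9 to 83.5 and 11.6 to 36.4 CPM at day 3, and 34.5 to 48.6 and 11.8 to 14.3 CPM in cartilage. It was lower in cKO in all 3 settings, with log2 fold changes of -2.44, -1.41 and -1.66 (adjusted p = 1.62e-08, 0.00625 and 6.34e-05). The estimated counts of the same cartilage libraries gave a smaller Dnmt1 change, -0.78 (adjusted p = 0.0108). The cKO cultures differed from the controls in much more than imprinted genes. Summed chondrocyte markers were 119780.0 to 126620.0 CPM in control and 44867 to 54407 CPM in cKO at day 0, and 81547 to 99996 and 975 to 15144 CPM at day 3. Summed skeletal muscle markers were 7.02 to 7.77 and 41.4 to 52.9 CPM at day 0 and 1.83 to 2.79 and 141 to 1626 CPM at day 3, with 4 of 5 tested markers higher at day 0 and 6 of 6 at day 3. Of that list, Pax7 was at 0 in every cKO library at day 0 and Myf5 in every cKO library at day 3. Other lists moved too, while 64.5% of all genes tested were called at day 0 and 48.1% at day 3. Leukocyte markers were higher in 3 of 3 tested at day 0 and 2 of 2 at day 3. Adipocyte markers were higher in 2 of 3 and 2 of 2, and neuron markers in 1 of 2 and 2 of 2. Fibroblast markers were lower in 4 of 5 at day 0 and higher in 1 of 5 at day 3. Osteoclast markers were higher in 1 and lower in 1 of 4 at day 0, and higher in 1 of 2 at day 3. Their day 0 sums were 158 to 163 CPM in control and 72.8 to 86.8 CPM in cKO. The 1 Schwann cell marker tested was lower on both days. The 1 endothelial marker tested was higher at day 0 and not called at day 3. The part of these shifts in the culture values below was not tested, and fewer cells of a type cannot be told apart from less RNA per cell. At day 3, cKO replicate 4 stood apart from its group: counts of its genes differed from those of the other 3 with a chi-square over degrees of freedom between 124 and 138, beside 3.53 to 30.2 for all other replicate pairs. Its chondrocyte sum (975 CPM) and muscle sum (141 CPM) were the lowest of the 4 cKO libraries. Its osteoclast sum (377 CPM) and neuron sum (43.1 CPM) were the highest of the 4. Day 3 values are therefore also given without it. In cartilage the chondrocyte sum was 58194 to 88294 CPM in control and 25550.0 to 53632 CPM in cKO, and all 4 control libraries were prepared in 1 pool and all 4 cKO libraries in another, so pool and genotype cannot be told apart there.

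In control cultures at day 0 the members spanned several orders of magnitude when levels were divided by exon length. Mest was highest, at 583 ± 23.0 CPM per kilobase (SD, n = 3), ahead of the growth regulators Peg3 at 266 ± 8.03 and Plagl1 at 242 ± 5.84 CPM per kilobase. These 3 did not overlap between libraries. Dlk1, at 132 ± 25.9, could not be told from Gnas, at 124 ± 1.81, or from Grb10, at 115 ± 0.532 CPM per kilobase. Igf2r followed at 94.8 ± 4.28, Peg10 at 50.8 ± 1.53 and Zim1 at 46.2 ± 1.42 CPM per kilobase. At the other end were Nnat at 0.734, Mkrn3 at 0.216, Herc3 at 0.16, Nap1l5 at 0.0814 and Kcnk9 at 0.0011 CPM per kilobase. The day 3 control cultures again had Mest, Peg3 and Plagl1 at the top.

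In culture more of the imprinted genes were lower than higher in cKO. At day 0, 20 of 25 members tested differed between the genotypes by edgeR's quasi-likelihood test at an adjusted p under 0.05, 7 higher and 13 lower in cKO, which is 80.0% of those tested. The background was high: 64.5% of all 15530 genes tested were called, 33.0% higher and 31.6% lower, and whether the members differed from it was not tested. At day 3, 13 of 25 members were called, 3 higher and 10 lower, or 52.0%, beside 48.1% of all genes, 25.5% higher and 22.6% lower. Without cKO replicate 4 the day 3 count was 19 of 26, with 6 higher and 13 lower, or 73.1%, beside 55.1% of all genes in that fit. In cartilage 4 of 24 members were called, 1 higher and 3 lower, or 16.7%, beside 6.19% of all genes, 3.15% higher and 3.04% lower. The median log2 fold change of the members tested was -0.34 at day 0, -0.38 at day 3 and 0.14 in cartilage, while that of all genes tested was 0.01, 0.01 and 0.01. Members that did not pass the filter on low counts have no test: Kcnk9 on both days, Nap1l5 at day 0, Magel2 at day 3, and Magel2, Snrpn, Mkrn3, Nnat, Peg13, Nap1l5 and Herc3 in cartilage. Of the 13 members lower at day 0, 9 were also lower at day 3, where they were 9 of the 10 lower members. How many of all genes were lower on both days was not counted, so this overlap has no background beside it. Peg12 and Herc3 were higher on both days, and Ndn was lower at day 0 and higher at day 3. Taken by allele, 8 of 16 paternally expressed members were lower and 5 higher at day 0, and 4 of 5 maternally expressed members were lower and 1 higher. At day 3, 6 of 16 paternally expressed members were lower and 2 higher, and 3 of 5 maternally expressed members were lower and 0 higher. In cartilage all 3 genes called lower were maternally expressed, of 8 tested, and the 1 gene called higher was paternally expressed, of 13 tested. Of members whose own promoter lies at a maternally methylated control region, 3 were higher and 4 lower of 10 tested at day 0, 0 and 4 of 11 at day 3, and 1 and 0 of 9 in cartilage.

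**Figure D1:**
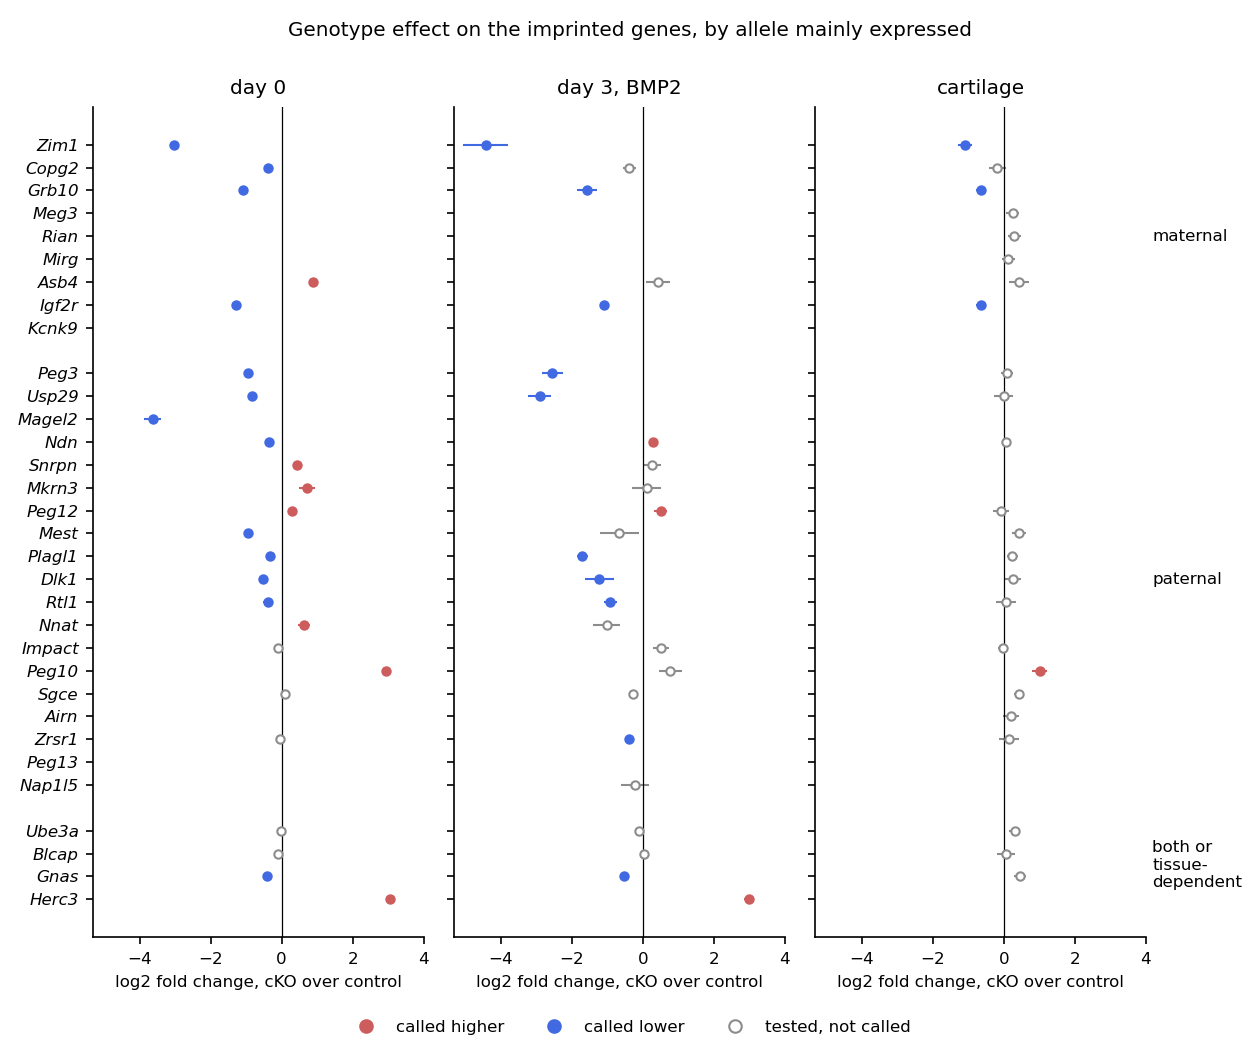
Log2 fold change of cKO over control for each imprinted gene, by the parental allele it is mainly expressed from (rows) in the 3 settings (panels). Points are edgeR estimates and bars 1 standard error; filled red and blue points were called higher and lower at an adjusted p under 0.05, open points were tested and not called, and a row without a point was not tested. Zim1, Grb10 and Igf2r are blue in all 3 panels, and Peg10 is red at day 0 and in cartilage.

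Zim1, Igf2r and Grb10 were the members lower in cKO in all 3 settings, and all are expressed mainly from the maternal copy. In each of them the control and cKO libraries did not overlap in any setting. Zim1 lies at chr7:6671269-6696450 on the minus strand (GRCm38) and encodes a zinc-finger protein of the Peg3 domain. Igf2r lies at chr17:12682406-12769664 on the minus strand and encodes the mannose-6-phosphate receptor that carries IGF2 to the lysosome for degradation. Grb10 lies at chr11:11930508-12038683 on the minus strand and encodes an adaptor that binds the insulin and IGF1 receptors and dampens their signal. Their promoter windows, 250 bases before to 50 after the start, are shown because these genes were lower in all 3 settings and because DNA methylation acts on CG pairs, which stand in capitals. The sequences are from RefSeq, 5′ to 3′ on the gene's strand, in GRCm38.p6. The Zim1 window (chr7:6696383-6696682) holds 20 CG pairs, the Igf2r window (chr17:12769657-12769956) 34 and the Grb10 window (chr11:12037371-12037670) 45. Grb10 has a second RefSeq window, not printed, with 9. The printed Grb10 window lies wholly downstream of the gene start at chr11:12038683, so it does not cover the sequence around that start.
Zim1: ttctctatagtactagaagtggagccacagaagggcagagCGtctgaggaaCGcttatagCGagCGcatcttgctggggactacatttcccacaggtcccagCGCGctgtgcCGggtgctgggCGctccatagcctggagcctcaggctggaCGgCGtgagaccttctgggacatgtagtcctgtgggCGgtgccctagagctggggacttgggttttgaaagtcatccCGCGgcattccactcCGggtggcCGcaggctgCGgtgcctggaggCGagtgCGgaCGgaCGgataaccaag
Igf2r: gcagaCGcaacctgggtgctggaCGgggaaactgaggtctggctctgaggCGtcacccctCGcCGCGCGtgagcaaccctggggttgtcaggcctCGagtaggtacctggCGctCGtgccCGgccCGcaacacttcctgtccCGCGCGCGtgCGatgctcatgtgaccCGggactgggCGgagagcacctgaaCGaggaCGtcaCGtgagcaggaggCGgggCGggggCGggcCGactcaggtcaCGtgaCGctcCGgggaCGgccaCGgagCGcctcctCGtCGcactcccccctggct
Grb10: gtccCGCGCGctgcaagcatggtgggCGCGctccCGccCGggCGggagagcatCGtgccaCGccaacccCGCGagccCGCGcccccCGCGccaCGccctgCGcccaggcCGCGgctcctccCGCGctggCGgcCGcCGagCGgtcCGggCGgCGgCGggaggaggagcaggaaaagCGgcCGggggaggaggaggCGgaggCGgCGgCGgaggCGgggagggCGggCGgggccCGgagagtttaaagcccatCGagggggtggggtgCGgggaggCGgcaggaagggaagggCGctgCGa
The median over 32851 mouse windows of this length was 7 CG pairs. Methylation itself was not analysed here.

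The Zim1 level at day 0 was 382, 379 and 361 CPM in the control and 36.2, 53.7 and 47.5 CPM in the cKO libraries. At day 3 it was 494, 619.8, 560.2 and 556 CPM in the control and 36.6, 23.6, 40.7 and 3.19 CPM in the cKO libraries. In cartilage it was 185, 115, 131 and 134 CPM in the control and 49.5, 54.2, 67.8 and 97.3 CPM in the cKO libraries. Every cKO library was thus below every control, and in culture the highest cKO library was far under the lowest control. Zim1 fell by 3.03 (SE 0.12, adjusted p = 8.19e-08) on the log2 scale at day 0, by 4.42 (SE 0.64, adjusted p = 7.32e-04) at day 3 and by 1.09 (SE 0.20, adjusted p = 0.00308) in cartilage. Without cKO replicate 4, its lowest library, Zim1 fell by 4.06 (adjusted p = 3.30e-07) at day 3.

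For Igf2r the levels at day 0 were 928, 867 and 853 CPM in the control and 356, 388 and 350.3 CPM in the cKO libraries. The day 3 levels were 876, 845, 1015 and 806 CPM in the control and 439.5, 367, 379.7 and 477 CPM in the cKO libraries, and cKO replicate 4 was here the highest of the cKO libraries. Cartilage held 491, 464, 492 and 402 CPM in the control and 322, 287, 249.8 and 319 CPM in the cKO libraries. The receptor fell by 1.28 (SE 0.05, adjusted p = 1.11e-07) at day 0, by 1.09 (SE 0.12, adjusted p = 1.77e-04) at day 3 and by 0.65 (SE 0.13, adjusted p = 0.00705) in cartilage. Airn, the paternally expressed antisense RNA that starts inside Igf2r and silences the paternal Igf2r copy, was measured in cartilage only, at 74.3, 29.0, 44.0 and 47.9 CPM in the control and 73.9, 58.6, 39.2 and 55.1 CPM in the cKO libraries. Its groups overlapped and its log2 fold change was 0.19 (SE 0.23, adjusted p = 0.665).

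Grb10 was even across the control cultures and lower in each cKO culture. Its levels were 1052, 1049.5 and 1042 CPM in the control and 491, 525 and 459.6 CPM in the cKO libraries at day 0. At day 3 they were 1079, 993, 1031 and 1058 CPM in the control and 428, 388, 427 and 162 CPM in the cKO libraries, and replicate 4 was the lowest. In cartilage they were 387, 394, 344 and 386 CPM in the control and 228, 206, 273 and 270.5 CPM in the cKO libraries. The decrease was 1.09 (SE 0.05, adjusted p = 2.65e-07) at day 0, 1.57 (SE 0.28, adjusted p = 0.00201) at day 3 and 0.64 (SE 0.13, adjusted p = 0.00762) in cartilage on the log2 scale, and Grb10 fell by 1.33 (adjusted p = 1.02e-06) at day 3 without replicate 4.

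**Figure D2:**
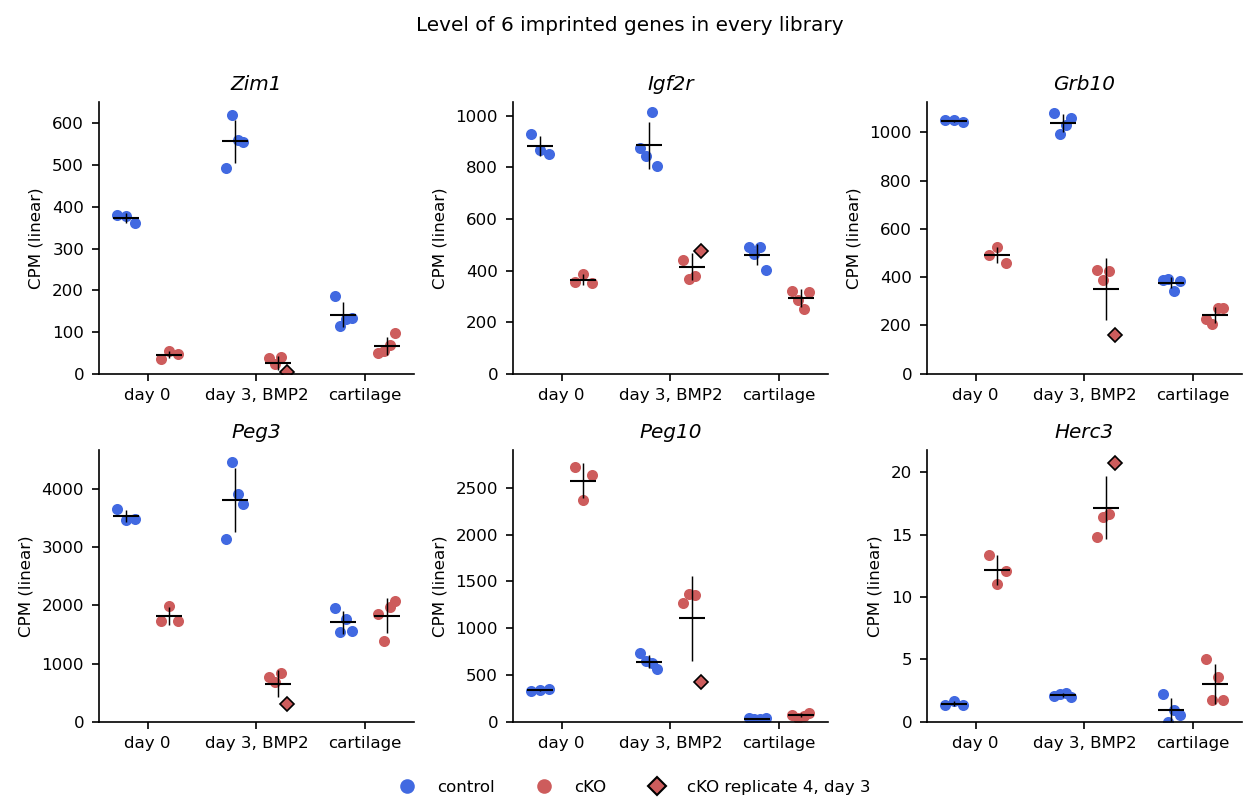
Level of 6 imprinted genes in every library, in CPM on linear axes, by setting. Each point is 1 library, blue for control and red for cKO, the horizontal line is the group mean and the vertical bar its SD; the outlined diamond is cKO replicate 4 at day 3. The cKO points of Zim1, Igf2r and Grb10 lie below the control points in each setting, those of Peg10 lie above them at day 0 and in cartilage, and for Peg10 the diamond lies below the control points.

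The other maternally expressed members did not share a direction. Copg2, a subunit of the coat of Golgi vesicles whose 3′ end overlaps that of Mest on the opposite strand, fell by 0.39 at day 0 (adjusted p = 2.80e-04). Its log2 fold change was -0.38 at day 3 (adjusted p = 0.124) and -0.18 in cartilage (adjusted p = 0.717). Without replicate 4 the day 3 value was -0.22 (adjusted p = 0.0471). Asb4, an adaptor of a ubiquitin ligase that lies in the Peg10 domain, rose at day 0, with 20.2 to 24.4 CPM in control and 39.2 to 40.7 CPM in cKO (log2 fold change 0.87, adjusted p = 4.86e-06). At day 3 and in cartilage it was not called, with 0.44 and 0.44, and 0.67 (adjusted p = 0.0236) at day 3 without replicate 4. The long non-coding RNAs Meg3, Rian and Mirg, transcribed from the maternal copy of the Dlk1 domain and hosts of small RNAs, were measured in cartilage only. Meg3 was among the higher members there, at 4489.7 to 6408 CPM in control and 5467 to 7617 CPM in cKO. The 3 RNAs had log2 fold changes of 0.25, 0.30 and 0.13 (adjusted p = 0.470, 0.334 and 0.712), with overlapping groups. Kcnk9, a potassium channel imprinted in brain, was at or near 0 in every culture and was not tested.

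In the Peg3 domain the paternally expressed genes fell in culture, as Zim1 did, and were not called in cartilage, where the difference from culture was not tested. Peg3 encodes a zinc-finger transcription factor (chr7:6703892-6730431, minus strand), and Usp29, a deubiquitinating enzyme, starts next to it and is transcribed the other way. Peg3 levels at day 0 were 3661, 3467 and 3487 CPM in the control and 1740.4, 1996 and 1726 CPM in the cKO libraries. At day 3 they were 3137, 4457, 3912 and 3744 CPM in the control and 777, 687, 843 and 316 CPM in the cKO libraries. Cartilage held 1954, 1549.5, 1766 and 1565 CPM in the control and 1853, 1392, 1982 and 2077 CPM in the cKO libraries, and there the groups overlapped. Peg3 fell by 0.96 (SE 0.07, adjusted p = 3.53e-06) at day 0 and by 2.54 (SE 0.30, adjusted p = 2.49e-04) at day 3, and its log2 fold change in cartilage was 0.09 (SE 0.16, adjusted p = 0.787).

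Usp29 followed Peg3 at a level well below it. It was at 42.4, 39.2 and 40.3 CPM in the control and 21.2, 24.2 and 23.4 CPM in the cKO libraries at day 0 and at 41.5, 40.2, 34.1 and 40.1 CPM in the control and 5.83, 5.15, 7.71 and 2.08 CPM in the cKO libraries at day 3. In cartilage the values were 42.8, 26.4, 22.0 and 29.3 CPM in the control and 33.6, 15.7, 33.9 and 37.9 CPM in the cKO libraries, with overlap. Usp29 fell by 0.82 (SE 0.06, adjusted p = 2.81e-06) at day 0 and by 2.90 (SE 0.32, adjusted p = 1.78e-04) at day 3, and its cartilage log2 fold change was -0.01 (SE 0.26, adjusted p = 0.991). Without replicate 4 the day 3 decreases were 2.31 for Peg3 and 2.65 for Usp29 on the log2 scale. Usp29 shares exons with Zim3 on the opposite strand, and the strand setting of the counting is not given in the sources used here.

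The Snrpn domain, which is the mouse counterpart of the Prader-Willi and Angelman region, held genes called in both directions. Magel2, a regulator of endosomal protein sorting (chr7:62377010-62381640, plus strand), had the lowest log2 fold change of the 25 members tested at day 0. Its levels were 41.5, 39.5 and 37.8 CPM in the control and 3.11, 4.80 and 1.82 CPM in the cKO libraries there, with no overlap. Magel2 fell by 3.63 (SE 0.24, adjusted p = 1.79e-06) on the log2 scale. At day 3 it was near the limit of detection, at 1.90, 1.23, 0.558 and 3.04 CPM in the control and 0.291, 0, 0.431 and 0 CPM in the cKO libraries, and did not pass the filter on low counts; without that filter it fell by 3.17 (adjusted p = 0.0187). In cartilage it was at 0 to 6.42 CPM in control and 0.875 to 7.75 CPM in cKO and was not tested.

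Ndn, its neighbour, encodes necdin, a growth suppressor of the same protein family. Ndn stood at 85.1, 104 and 100.4 CPM in the control and 74.8, 77.7 and 74.7 CPM in the cKO libraries at day 0 and at 62.0, 66.9, 74.7 and 72.0 CPM in the control and 88.6, 79.2, 80.1 and 91.8 CPM in the cKO libraries at day 3. The cKO libraries were all below the controls at day 0 and all above them at day 3. Ndn fell by 0.35 (SE 0.07, adjusted p = 0.00138) at day 0 and rose by 0.30 (SE 0.08, adjusted p = 0.0150) at day 3. The day 3 call was lost without control replicate 2 (adjusted p = 0.0512). In cartilage, at 158, 137, 142 and 169 CPM in the control and 156, 147, 161 and 174 CPM in the cKO libraries, the log2 fold change was 0.07 (SE 0.12, adjusted p = 0.786). Peg12, a binding partner of the kinase GSK3, stood at 9.61, 8.77 and 8.81 CPM in the control and 11.5, 11.0 and 11.0 CPM in the cKO libraries at day 0. At day 3 its values were 5.83, 4.18, 5.08 and 4.12 CPM in the control and 7.11, 8.48, 6.09 and 5.70 CPM in the cKO libraries, where 1 cKO library lay under the highest control. It rose by 0.30 (SE 0.07, adjusted p = 0.00429) at day 0 and by 0.51 (SE 0.18, adjusted p = 0.0460) at day 3. The second of these calls was lost when any of 6 of the 8 libraries was left out, all but control replicate 1 and cKO replicate 4 (adjusted p between 0.0575 and 0.125). Peg12 in cartilage was at 21.0, 17.1, 23.8 and 25.2 CPM in the control and 16.0, 27.1, 19.6 and 20.7 CPM in the cKO libraries, with a log2 fold change of -0.07 (SE 0.22, adjusted p = 0.879).

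Snrpn, a core splicing protein whose exons overlap those of Snurf, rose by 0.43 at day 0 (adjusted p = 4.70e-04). For Snrpn the day 3 value was 0.26 (adjusted p = 0.435), which turned to -0.10 (adjusted p = 0.394) without replicate 4, the library where Snrpn was highest. Mkrn3, a ubiquitin ligase linked to the timing of puberty, was under 2 CPM in every culture; it rose by 0.72 at day 0 (adjusted p = 0.0162), a call that was lost in DESeq2 (adjusted p = 0.0916) and without control replicate 2 or cKO replicate 3 (0.0636 and 0.0575 by edgeR). The Mkrn3 value at day 3 was 0.12 (adjusted p = 0.837). Ube3a, a ubiquitin ligase that is imprinted in neurons and transcribed from both copies elsewhere, was not called in any setting: its log2 fold changes were -0.01, -0.10 and 0.30 (adjusted p = 0.664, 0.209 and 0.239). Snrpn and Mkrn3 were at 0 to 1.71 and 0 to 1.03 CPM in control cartilage and were not tested there.

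Peg10 had the greatest rise of any paternally expressed member. It is a gene derived from a retrotransposon (chr6:4747306-4760517, plus strand), is needed in the placenta, and encodes a protein that forms capsid-like particles. At day 0 it was at 328, 338 and 349 CPM in the control and 2726, 2366 and 2633 CPM in the cKO libraries. At day 3 it was at 734, 647, 630.5 and 564 CPM in the control and 1269.5, 1370.5, 1357 and 428 CPM in the cKO libraries, so that 3 cKO libraries were above every control and replicate 4 was below every control. Cartilage held 37.5, 29.0, 33.9 and 36.6 CPM in the control and 78.9, 40.2, 67.8 and 90.4 CPM in the cKO libraries, with every cKO library above every control. Peg10 rose by 2.93 (SE 0.07, adjusted p = 2.77e-09) at day 0 and by 1.01 (SE 0.20, adjusted p = 0.00645) in cartilage. Its day 3 value on the log2 scale was 0.78 (SE 0.33, adjusted p = 0.0775) and so not called in the edgeR fit of day 3 alone. With every library kept, it was called higher by DESeq2 (adjusted p = 0.0361) and in the edgeR fit of all 14 cultures (adjusted p = 0.0276). Without replicate 4 it rose by 1.04 (adjusted p = 1.63e-05). Sgce, the epsilon-sarcoglycan of the dystrophin complex, starts about where Peg10 starts and runs the other way. It was not called in any setting, with log2 fold changes of 0.10, -0.27 and 0.43 (adjusted p = 0.0581, 0.0570 and 0.0870), although in cartilage each cKO library, at 69.1 to 82.7 CPM, was above each control, at 45.9 to 61.8 CPM.

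Plagl1 encodes a zinc-finger transcription factor that is itself a regulator of other imprinted genes (chr10:13060504-13131694, plus strand). Its levels at day 0 were 1839, 1908 and 1925 CPM in the control and 1375, 1555 and 1562 CPM in the cKO libraries, and at day 3 they were 1694, 1565, 1733 and 1283 CPM in the control and 544, 453, 544 and 396 CPM in the cKO libraries. Both days showed every cKO library under every control. Plagl1 fell by 0.34 (SE 0.06, adjusted p = 9.98e-04) at day 0 and by 1.70 (SE 0.15, adjusted p = 5.60e-05) at day 3. In cartilage it was at 671, 532, 635 and 529 CPM in the control and 805, 613, 557 and 826 CPM in the cKO libraries, with overlap and a log2 fold change of 0.24 (SE 0.16, adjusted p = 0.395). Mest, a member of the alpha/beta hydrolase family, was the most abundant member per kilobase in control cultures on both days. It fell by 0.94 at day 0 (adjusted p = 1.45e-04), with 2207 to 2388 CPM in control and 958 to 1442 CPM in cKO. The day 3 log2 fold change was -0.66 (adjusted p = 0.348) and -0.31 (adjusted p = 0.129) without replicate 4, which held only 283 CPM. In cartilage Mest was not called, with 0.43 (adjusted p = 0.201).

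Dlk1, a membrane protein related to the Notch ligands that holds back adipocyte differentiation (chr12:109452823-109463336, plus strand), was at 909, 703 and 626 CPM in the control and 456, 579 and 529 CPM in the cKO libraries at day 0. At day 3 it was at 70.5, 62.6, 60.4 and 48.6 CPM in the control and 33.7, 25.7, 37.2 and 7.47 CPM in the cKO libraries. The cKO libraries were below the controls on both days. Dlk1 fell by 0.52 (SE 0.13, adjusted p = 0.00699) at day 0 and by 1.22 (SE 0.40, adjusted p = 0.0347) at day 3; the second call was lost when any control library or cKO replicate 2 was left out (adjusted p between 0.0505 and 0.0774), and its log2 fold change was -0.92 (adjusted p = 6.81e-04) without replicate 4. In cartilage, at 2551, 1532, 2454 and 2266 CPM in the control and 3309, 2352, 1542 and 3324 CPM in the cKO libraries, its log2 fold change was 0.26 (SE 0.23, adjusted p = 0.555). Rtl1, a second gene derived from a retrotransposon and transcribed from the paternal copy of the same domain, was at 5.37, 6.17 and 6.997 CPM in the control and 4.03, 4.77 and 5.42 CPM in the cKO libraries at day 0 and at 4.57, 5.07, 4.89 and 5.14 CPM in the control and 2.91, 2.32, 3.24 and 1.96 CPM in the cKO libraries at day 3. The groups overlapped by a single library at day 0 and were apart at day 3. Rtl1 fell by 0.38 (SE 0.14, adjusted p = 0.0349) at day 0, a call that was lost when control replicate 2 or 3 or cKO replicate 1 or 2 was left out (adjusted p between 0.0653 and 0.126), and by 0.91 (SE 0.19, adjusted p = 0.00414) at day 3. Its cartilage values were 12.8, 5.97, 10.1 and 11.8 CPM in the control and 8.397, 10.5, 12.5 and 12.1 CPM in the cKO libraries, with a log2 fold change of 0.07 (SE 0.29, adjusted p = 0.909).

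The remaining paternally expressed members were scarce or were called in 1 setting at most. Nnat, a small membrane protein of the endoplasmic reticulum that lies in an intron of Blcap, was at 1.13 to 1.54 CPM in control and 1.87 to 2.28 CPM in cKO at day 0 and rose by 0.63 (adjusted p = 0.00860). Nnat had a log2 fold change at day 3 of -1.01 (adjusted p = 0.0536), and -1.46 (adjusted p = 0.00304) without replicate 4. Impact, an inhibitor of the amino acid sensor GCN2, was not called, with -0.11, 0.50 and -0.03 (adjusted p = 0.331, 0.0977 and 0.924); at day 3 it was 0.19 (adjusted p = 0.0443) without replicate 4. Zrsr1, a splicing factor gene nested in Commd1, fell by 0.39 at day 3 (adjusted p = 0.00482) and was not called at day 0 or in cartilage (-0.04 and 0.14). Nap1l5, a relative of nucleosome assembly proteins, was under 2 CPM in every culture and not called at day 3 (-0.22, adjusted p = 0.685). Peg13, a non-coding RNA within Trappc9, was at 3.67 to 9.01 CPM in control and 2.52 to 3.57 CPM in cKO cartilage. The Peg13 cKO libraries were all below the controls, but it did not pass the filter, and without the filter its log2 fold change was -1.25 (adjusted p = 0.112).

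Among the members expressed from both copies in most tissues, Herc3 rose on both days in culture and Gnas fell. Herc3 encodes a ubiquitin ligase (chr6:58831465-58920398, plus strand), and Nap1l5 sits in one of its introns on the other strand. Their promoter windows are shown because the host gene rose and the imprinted gene inside it was not called. The Herc3 window (chr6:58833450-58833749) holds 4 CG pairs and the Nap1l5 window (chr6:58907077-58907376) 17, in capitals as above. The Herc3 window lies wholly downstream of the gene start given above, so it does not cover the sequence around that start.
Herc3: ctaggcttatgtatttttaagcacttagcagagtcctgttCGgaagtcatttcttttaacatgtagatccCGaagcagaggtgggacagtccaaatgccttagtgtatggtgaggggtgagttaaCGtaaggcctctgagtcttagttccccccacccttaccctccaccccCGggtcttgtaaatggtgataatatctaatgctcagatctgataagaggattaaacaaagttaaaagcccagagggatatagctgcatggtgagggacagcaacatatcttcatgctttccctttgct
Nap1l5: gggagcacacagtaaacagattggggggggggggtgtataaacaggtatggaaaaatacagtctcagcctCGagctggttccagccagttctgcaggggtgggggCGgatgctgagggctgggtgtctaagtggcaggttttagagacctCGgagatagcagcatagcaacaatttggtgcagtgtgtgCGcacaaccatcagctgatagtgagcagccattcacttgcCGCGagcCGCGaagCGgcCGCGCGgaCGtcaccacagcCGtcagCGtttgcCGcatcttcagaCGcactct
The Herc3 level at day 0 was 1.342, 1.71 and 1.33 CPM in the control and 13.4, 11.0 and 12.1 CPM in the cKO libraries, and at day 3 it was 2.11, 2.23, 2.35 and 1.96 CPM in the control and 14.8, 16.4, 16.7 and 20.7 CPM in the cKO libraries. Each cKO library was several times above each control, including replicate 4, which was the highest. Herc3 rose by 3.05 (SE 0.13, adjusted p = 1.16e-07) at day 0 and by 2.98 (SE 0.14, adjusted p = 3.53e-06) at day 3. In cartilage the whole-number table held 0 to 6 counts of Herc3 per library and gave no edgeR test, at 2.25, 0, 0.917 and 0.515 CPM in the control and 5.04, 1.75, 3.57 and 1.72 CPM in the cKO libraries. DESeq2 gave a log2 fold change of 1.72 (SE 1.11, adjusted p = 0.706) in these counts. The estimated counts of the same libraries gave a log2 fold change of -0.08 (adjusted p = 0.804 by edgeR), so the direction there depended on the table.

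Gnas encodes the stimulatory G protein subunit that relays parathyroid hormone-related peptide in growth plate chondrocytes, together with several imprinted transcripts (chr2:174284320-174346744, plus strand), and the counts do not separate them. It stood at 1366, 1406 and 1392 CPM in the control and 1013, 1060.5 and 1068 CPM in the cKO libraries at day 0. At day 3 it stood at 1187, 1412, 1352 and 1389.8 CPM in the control and 902, 898, 953 and 962 CPM in the cKO libraries. The groups were apart on both days, and replicate 4 lay close to the other cKO libraries. Gnas fell by 0.41 (SE 0.04, adjusted p = 3.45e-05) at day 0 and by 0.52 (SE 0.09, adjusted p = 0.00198) at day 3. In cartilage, at 143, 129.7, 92.6 and 103 CPM in the control and 174, 119.8, 189 and 153 CPM in the cKO libraries, the whole-number counts gave 0.45 (SE 0.17, adjusted p = 0.128) and the estimated counts -0.26 (adjusted p = 0.199), so the direction there depended on the table. Blcap, a small protein named for bladder cancer, was not called in any setting (-0.11, 0.02 and 0.06, with adjusted p = 0.109, 0.853 and 0.904).

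Whether a genotype effect differed between day 3 and day 0 was tested over all 14 cultures, and 6 of 26 members tested passed, 1 higher and 5 lower, beside 16.8% of 14909 genes, 9.94% higher and 6.89% lower. Day, BMP2 and count table changed together, so they cannot be told apart. The decrease was deeper at day 3 for Peg3, by 1.59 on the log2 scale (adjusted p = 0.0104), for Usp29, by 2.09 (adjusted p = 0.00192), and for Plagl1, by 1.38 (adjusted p = 5.14e-04). The effect on Peg10 was smaller at day 3, with a difference of -2.16 (adjusted p = 0.00458), and that on Nnat was lower by 1.68 (adjusted p = 0.0200). Ndn was the member whose effect was higher at day 3, by 0.63 (adjusted p = 0.00283). Without cKO replicate 4 the count was 10 of 26, with 1 higher and 9 lower, while the share over all genes also went from 16.8% to 27.3%. Zim1 was added at -1.03 (adjusted p = 0.00405), and Snrpn, Sgce and Zrsr1 at -0.53, -0.29 and -0.40. The same difference was 0.16 for Igf2r, -0.49 for Grb10 and -0.09 for Herc3 (adjusted p = 0.458, 0.375 and 0.787), with standard errors of 0.14, 0.35 and 0.19.

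**Figure D3:**
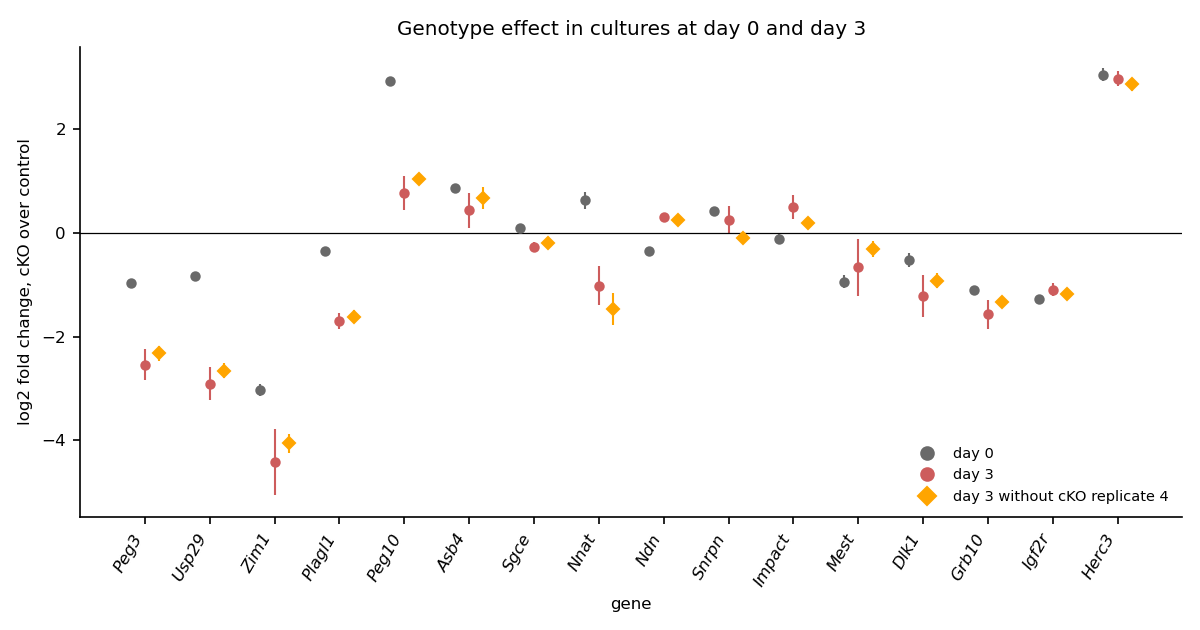
Log2 fold change of cKO over control in culture for 16 imprinted genes at day 0 (grey circles), at day 3 with BMP2 (red circles) and at day 3 without cKO replicate 4 (orange diamonds); bars are 1 standard error. Peg3, Usp29 and Plagl1 are lower at day 3 than at day 0 with and without that library, Peg10 is above 0 at both days and nearer to 0 at day 3, and Herc3 is close to 3 on both days.

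In cartilage, Zim1, Igf2r, Grb10 and Peg10 were called over both sexes together. The genotype effect of 0 of 24 members differed between females and males by edgeR's test, beside 0.0103% of 9687 genes. Of the 24 members, 3 (Zim1, Mirg and Gnas) had an unadjusted p under 0.05, beside 468 of all 9687 genes. Each genotype and sex had 2 libraries, which limits the precision of that test. All 4 members called in the whole-number counts were also called in the estimated counts of the same libraries, where Zim1, Igf2r and Grb10 fell by 1.07, 0.70 and 0.69 and Peg10 rose by 0.89 (adjusted p = 0.00508, 0.00323, 0.00348 and 0.0139). Markers of osteoclasts were lower in cKO cartilage in 3 of 3 tested genes, with summed levels of 124 to 452 CPM in control and 57.9 to 118 CPM in cKO. Of the skeletal muscle markers, Des, a muscle filament gene, was the 1 tested and was higher (log2 fold change 1.44, adjusted p = 0.0241). The muscle sums were 9.27 to 14.5 CPM in control and 14.6 to 54.2 CPM in cKO, with Myf5 and Myog at 0 in every cKO library and Myh3 at 0 in every control. Fibroblast markers summed to 32041 to 62171 CPM in control and 17127 to 38422 CPM in cKO, with 0 of 5 called. The part of these markers in the 4 results was not tested.

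**Figure D4:**
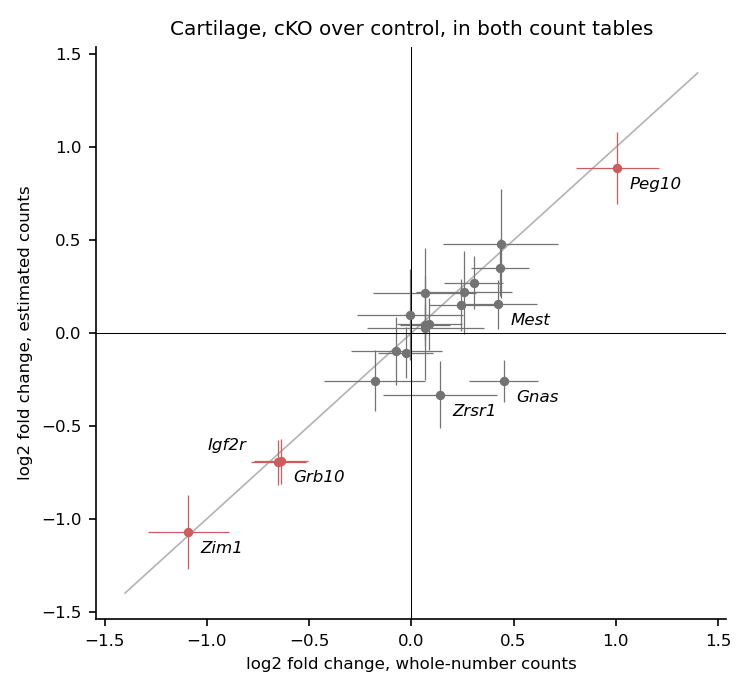
Log2 fold change of cKO over control in cartilage from the whole-number counts (horizontal axis) and from the estimated counts of the same libraries (vertical axis) for the 20 imprinted genes tested in both; bars are 1 standard error and the grey line marks equal values. The 4 called genes, in red, lie close to the line, and Usp29, Gnas and Zrsr1 change sign between the tables.

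RefSeq promoter windows were taken for 26 of the 32 genes, giving 37 windows, with a median of 13 CG pairs beside 7 in all 32851 mouse windows of 300 bases. Windows on chromosome 18, where Impact lies, were left out of the member set only. The letters TGCCGC, read on either strand, are the core that the imprint-keeping protein ZFP57 binds when its CG is methylated. They occurred in 10 of the 37 windows (27.0%) and in 11.6% of all windows. Overlapping windows of a gene were counted separately, such as those of Mest that start at chr6:30737800 and chr6:30737803, which both hold matches. The letters contain a CG and the member windows hold more CG pairs, so these shares are not matched for CG content. Their difference was not tested. Among the windows printed above, 1 match lies in that of Zim1, 1 in that of Grb10, 2 in that of Nap1l5 and 0 in those of Igf2r and Herc3. A match is a description of these letters and no evidence of binding, and many control regions lie outside such windows.

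Other imprinted genes give the setting for these values. Over all genes tested, 64.5% were called at day 0, 33.0% higher and 31.6% lower. At day 3 the share was 48.1%, with 25.5% higher and 22.6% lower. In cartilage it was 6.19%, with 3.15% higher and 3.04% lower, and 6.74% in the estimated counts. Whether any list below differed from these shares was not tested. Of the Igf2 and Kcnq1 region, 1 gene was higher and 3 were lower of 7 tested at day 0, 0 and 2 of 6 at day 3, and 0 and 0 of 7 in the whole-number cartilage counts. In the estimated cartilage counts 2 of 5 tested were lower: the growth factor gene Igf2, by 1.51 (adjusted p = 1.11e-05), and Cdkn1c, by 0.46 (adjusted p = 0.0286). The whole-number log2 fold changes of these genes, named after their values were seen, were -1.20 and -0.40 (adjusted p = 0.0601 and 0.104), and with the replicate block Igf2 passed in those counts too (adjusted p = 0.0296). Igf2 was at 16.5 to 41.3 CPM in control and 3.498 to 14.3 CPM in cKO in the whole-number table, and at 8727 to 11755 and 2958 to 3995 CPM in the estimated one. Cdkn1c, a cell cycle inhibitor, fell by 1.33 and 2.89 in culture, and Phlda2, a growth restrainer of the placenta, by 0.39 and 1.38. Of 37 further genes listed as imprinted, 14 were higher and 12 lower of 30 tested at day 0, 12 and 5 of 30 at day 3, and 1 and 1 of 19 in cartilage. The rises include Zfp264, a zinc-finger gene of the Peg3 domain, which was at 0 to 0.0419 CPM in control and 3.82 to 4.53 CPM in cKO at day 0. At day 3 Zfp264 was 0 in all control libraries and 2.94 to 5.01 CPM in cKO. The cKO mean of 3.70 CPM was at least 19.3-fold higher than control, taking the mean level of 3 counts in each control library as the control. Gatm, an enzyme of creatine synthesis, rose by 3.32 at day 0 and 7.17 at day 3, Dio3, which inactivates thyroid hormone in the Dlk1 domain, by 1.57 and 2.92, Xlr4b by 5.71 and 6.13, and Ampd3 by 1.64 and 2.57. Cdh15, a muscle cadherin, was at most 0.186 CPM in any control culture and at least 1.24 CPM in any cKO culture. The 2 genes of this list called in cartilage, named after their values were seen, were Ppp1r9a, in the Peg10 domain, which rose by 1.94, and Klf14, in the Mest domain, which fell by 1.23. Among 12 factors that keep or write imprints, 5 were higher and 2 lower of 11 tested at day 0, 1 and 3 of 11 at day 3, and 0 and 1 (Dnmt1) of 7 in cartilage. Dnmt3l, a cofactor of DNA methylation in germ cells, was at 0 to 0.0557 CPM in control and 1.89 to 3.00 CPM in cKO at day 3, and Zfp445, a zinc-finger protein that protects imprints, fell by 0.17 and 0.27 in culture.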

How the data were processed

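The 32 members and all gene lists were chosen with earlier results of these data known. For the cultures the authors deposited estimated counts per gene, 1 table for each day, from a directional library kit per the labels; the aligner and counter are not given in the sources used here. They were rounded to whole numbers. For cartilage the authors deposited whole-number counts from a barcoded 3′ method (BRB-seq), used as the main table, and estimated counts for the same libraries, used as an alternative; per the submitters' processing notes the tools include UMI-tools 1.1.1, Trim Galore 0.6.7, HISAT2 2.2.1, featureCounts 2.0.1 and DESeq2 1.34.0, with build GRCm38. A 3′ method counts transcript ends, and an end shared by overlapping genes can be lost or assigned to either. Gene identifiers were matched to GENCODE M21 (34652 of 34866 in the cultures and 23884 of 23911 in cartilage).

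Each table was fitted whole in edgeR 4.0.16 (R 4.3.3): TMM scaling, filterByExpr (minimum count 10, total 15), quasi-likelihood test, Benjamini-Hochberg adjustment over all genes tested, calls at an adjusted p under 0.05. Cartilage had sex as a covariate. Effects that differ by day or by sex were interaction terms. SE is the log2 fold change over the square root of F. CPM values use TMM-scaled library sizes. A level of 3 counts was the floor. The edgeR genotype test was tried on simulated counts in which few genes changed, unlike in the cultures. The interaction terms and the alternatives below were not tried in this way. Alternatives were another scaling (RLE), no filter, DESeq2 1.42.0, each replicate left out, the replicate number as a block, all cultures in 1 fit, no sex term and the estimated cartilage counts. Values in every library and full statistics are given for the 14 members called in at least 2 of the 3 genotype comparisons or called with an absolute log2 fold change of at least 1; genes of other lists are named where called in the same direction in at least 2 comparisons, at most 6 per list by size, together with Dnmt1.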

Additional observations from a re-analysis of the deposited data

Results flagged for a closer look

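A single library stood far from the rest of its group in 9 of 98 groups of member values examined, where about 1 in 20 would do so by chance, and 4 of the 9 were cKO replicate 4 at day 3. In that library Grb10 was at 162 CPM beside 388 to 428 CPM in the other 3, Peg10 at 428 CPM beside 1269.5 to 1370.5 CPM, Impact at 297 CPM beside 145 to 157 CPM and Snrpn at 42.7 CPM beside 18.2 to 21.1 CPM. The other libraries that stood far out were control replicate 2 in cartilage for Asb4 (11.9 CPM beside 30.0 to 30.4 CPM), control replicate 3 in cartilage for Grb10 (344 CPM beside 386 to 394 CPM), cKO replicate 3 in cartilage for Mirg (145 CPM beside 218 to 221 CPM), cKO replicate 4 in cartilage for Sgce (82.7 CPM beside 69.1 to 71.4 CPM) and cKO replicate 2 at day 3 for Ube3a (104 CPM beside 93.7 to 95.0 CPM).

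The genotype effect differed between day 3 and day 0 by the interaction test for 6 members, with differences in log2 fold change of -1.59 (SE 0.36) for Peg3, -2.09 (SE 0.35) for Usp29, -1.38 (SE 0.19) for Plagl1, -1.68 (SE 0.43) for Nnat, -2.16 (SE 0.42) for Peg10 and 0.63 (SE 0.11) for Ndn.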

How the results depend on the processing

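The count of 20 members called at day 0 was 11 of 26 (42.3%, beside 42.0% of all genes) when all 14 cultures shared 1 fit. That fit had a common coefficient of variation of 0.179 beside 0.0774 for day 0 alone. Snrpn, Mkrn3, Peg12, Mest, Copg2, Plagl1, Dlk1, Rtl1 and Nnat lost their calls in it. The day 0 count was 20 under the other scaling (beside 64.5% of all genes), 20 with no filter (beside 42.0%) and 19 with DESeq2 (beside 46.0%). The count of 13 at day 3 was 18 in the fit of all 14 cultures (beside 57.8% of all genes) and 15 with DESeq2 (beside 39.6%). Leaving out 1 library at a time gave 18 to 21 at day 0 (72.0% to 80.8%, beside 57.4% to 61.2% of all genes). At day 3 it gave 10 to 19 (40.0% to 73.1%, beside 40.1% to 55.1%). The 10 came without control replicate 2, at 40.0% beside 40.1%. In cartilage it gave 4 to 5 (16.7% to 20.8%, beside 4.03% to 6.99%). The difference between days gave 5 to 10 (19.2% to 38.5%, beside 10.4% to 27.3%), with 10 without cKO day 3 replicate 4. The difference between sexes gave 0, beside 0.00967% to 0.0582%. With the replicate number as a block the counts were 20, 12 and 4, beside 62.6%, 38.7% and 6.55% of all genes. Within day the block gave 6, beside 10.4%. Peg12 at day 3 lost its call with the block. Whether the replicate numbers pair the samples is not stated in the labels and was not settled here. Correlations of same-numbered libraries' deviations were -0.15 to 0.27, beside -0.33 to 0.20 for differently numbered ones. The deviations are from means of small groups, which limits what these correlations can show. Values that changed sign were called under neither fit: with the estimated counts, Usp29 (0.10), Gnas (-0.26) and Zrsr1 (-0.33) in cartilage; with the block, Usp29 (0.0052) in cartilage; and with 1 library left out, Impact (-0.19 to 0.0249) and Zrsr1 (-0.13 to 0.0135) at day 0, Snrpn (-0.10 to 0.40), Mkrn3 (-0.13 to 0.40), Blcap (-0.0724 to 0.0782) and Nap1l5 (-0.46 to 0.0597) at day 3, and Peg3 (-0.00861 to 0.20), Usp29 (-0.16 to 0.25), Peg12 (-0.28 to 0.0154), Rtl1 (-0.0876 to 0.29), Blcap (-0.0722 to 0.21), Airn (-0.0573 to 0.45) and Zrsr1 (-0.0755 to 0.35) in cartilage. The cause of each change was not tested. Without control replicate 1, Mest rose in cartilage by 0.66 (adjusted p = 0.0449), and without cKO replicate 2, Gnas by 0.61 (adjusted p = 0.0216). Depth limits cartilage: 7 of the 31 members in its table were too low to test.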
